A study of Rattus norvegicus with 16 samples.

Results

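The miR-99 and miR-100 family was described across the dorsal raphe and amygdala of 2 rat lines, as every listed mature miRNA named miR-99a, miR-99b or miR-100, of either arm of the hairpin. This name rule found 6 of the 722 miRNAs in the count tables, 3 of the 5p arm and 3 of the 3p arm. The family was chosen by measured values, the differences between the lines in rno-miR-100-5p in dorsal raphe and in rno-miR-99a-5p in amygdala, which were known beforehand. Values that compare the lines are therefore given as a description, without a test. Comparisons between the brain regions, and of ratios within a library, were tested. Where such a test holds miR-99a-5p or miR-100-5p, it draws in part on the values that chose the family. It is then no independent support.

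Small RNA was sequenced from brain tissue of 60-day-old rats of the High Responder and Low Responder strains. The names refer to locomotor response to novelty. Each of the 4 groups (low responder dorsal raphe, high responder dorsal raphe, low responder amygdala and high responder amygdala) has 4 libraries, 16 in all. The labels name no treatment, and do not state that the libraries of a group came from separate rats or whether tissue was pooled, so a p-value measures only the spread between these libraries. The tissue is bulk, so fewer cells of a type and less RNA per cell cannot be told apart.

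A microRNA is cut from a hairpin transcript, and the strand kept by an Argonaute protein guides it to messenger RNAs, mainly through the seed, bases 2 to 8. In this family the 5p arm is the strand mostly kept and the 3p arm is the passenger. The family is known for repressing the growth kinase mTOR and the insulin-like growth factor receptor. Its genes lie beside let-7 and miR-125 genes in 3 clusters, which can be transcribed together and then processed separately.

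The sequences are shown because the 5p members differ at few bases, which bears on how reads are assigned among them, and because they define the seed groups. Of the 6 names, 5 matched a mature sequence in the RefSeq table for rat (GRCr8), and miR-99a-5p is given by name. Capitals mark the seed.
rno-miR-100-5p: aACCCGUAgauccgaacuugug
rno-miR-99b-5p: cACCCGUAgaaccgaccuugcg
rno-miR-99a-3p: cAAGCUCGuuucuaugggucug
rno-miR-99b-3p: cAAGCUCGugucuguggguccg
rno-miR-100-3p: cAAGCUUGugucuauaggu
miR-100-5p and miR-99b-5p carry the same seed, ACCCGUA, and no other of the 693 mature sequences in that table holds it at bases 2 to 8. miR-99a-5p has no sequence in that table, so the search could not include it and says nothing on its seed. miR-100-5p and miR-99b-5p differ at 4 of 22 bases, A1C, U11A, A16C and U21C. These are written as the base of miR-100-5p, the position from the 5′ end and the base of miR-99b-5p. All of these differences lie outside the seed. The 3p arms of miR-99a and miR-99b share the seed AAGCUCG, while miR-100-3p has AAGCUUG, a difference of C7U from miR-99a-3p. How reads that fit several miRNAs were treated is not given in the sources used here. The split between near-identical members such as miR-99a-5p and miR-100-5p is therefore uncertain.

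Library totals ran from 1741167 to 8134915 counts. The shallowest library was high responder amygdala replicate 1, and low responder dorsal raphe replicate 4, with 2096188 counts, was the shallowest of its group. These were also the libraries farthest from their groups, with a root mean square deviation from the group mean over the 639 miRNAs tested of 0.968 and 1.03 on the log2 scale, against 0.285 to 0.880 in the other libraries. The 0.880 belonged to high responder amygdala replicate 4. In that group replicates 1 and 2 lay below 3 and 4 for some miRNAs, such as miR-125a-5p (1848 and 3300 against 8365 and 10673 CPM). Others, such as miR-125b-1-3p, had no such split. Leaving out replicate 1 therefore does not leave an even group. Levels are given in CPM, counts scaled to a common library size. Summed forebrain neuron markers were at 63343 to 121199 CPM in the amygdala libraries and at 22948 to 41792 CPM in the dorsal raphe libraries, and summed miRNAs of the Hox clusters, which mark hindbrain and spinal cord, were at 27.3 to 161 CPM and 369 to 3930 CPM. These ranges do not overlap. The Hox sum was mostly miR-10a-5p and miR-10b-5p, and its other members overlapped between the regions at no more than 7.76 CPM. The forebrain sum was mostly miR-128-3p (45979 to 115022 CPM against 12166 to 33492 CPM), while miR-124-3p, also on that list, overlapped between the regions (2616 to 14892 CPM against 5137 to 20274 CPM).

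miR-99a-5p was the most abundant member, ranking 5 of 722 miRNAs by its mean share of a library (3.44%, range 2.02% to 5.88%). The low responder dorsal raphe libraries held 29422, 30863, 38576 and 33859 CPM. In high responder dorsal raphe the values were 27957, 37728, 26236 and 36536 CPM, so the lines overlapped in this region. In low responder amygdala they were 21166, 25474, 25483 and 25738 CPM, and in high responder amygdala 50618, 55698, 46626 and 36088 CPM. All 4 high responder amygdala libraries lay above all 4 low responder amygdala libraries. By group mean the order was high responder amygdala (47258 ± 8320 CPM, SD, n = 4), low responder dorsal raphe (33180 ± 4044), high responder dorsal raphe (32114 ± 5857) and low responder amygdala (24465 ± 2203). Neighbours in this order overlapped, except that low responder amygdala lay below every high responder dorsal raphe library, by a margin of 26236 against 25738 CPM.

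miR-100-5p ranked 18, with a mean share of 1.44% of a library. Its libraries in low responder dorsal raphe were at 10997, 10479, 12250 and 87757 CPM, and those in high responder dorsal raphe at 8520, 10658, 8345 and 11003 CPM. A single library, low responder dorsal raphe replicate 4, stood far above the other 15. In low responder amygdala the values were 9978, 8217, 7812 and 10060 CPM, and in high responder amygdala 26000, 14151, 13788 and 9211 CPM. The highest of the amygdala libraries was high responder replicate 1, and the lowest high responder library lay inside the low responder range. The mean of low responder dorsal raphe was 30371 ± 38265 CPM (SD, n = 4) and fell to 11242 ± 911 CPM (n = 3) without replicate 4. By group median, the order was high responder amygdala (13970 CPM), low responder dorsal raphe (11624), high responder dorsal raphe (9589) and low responder amygdala (9098), and every pair of neighbours overlapped.

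miR-99b-5p, the least abundant 5p arm, ranked 35 with a mean share of 0.607%. It followed miR-100-5p: low responder dorsal raphe was at 3948, 3803, 3643 and 33617 CPM, with replicate 4 again far above the rest. High responder dorsal raphe was at 2965, 3971, 3665 and 3892 CPM, and low responder amygdala at 4031, 3982, 3323 and 4255 CPM. High responder amygdala was at 15963, 6877, 5324 and 4515 CPM, all above low responder amygdala, with replicate 1 far above the next. Without their deviating libraries, low responder dorsal raphe averaged 3798 ± 153 CPM and high responder amygdala 5572 ± 1200 CPM (SD, n = 3 each).

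The 3 passenger arms were far scarcer. miR-99b-3p was the highest of them, at 129 to 192 CPM in 14 libraries, 864 CPM in low responder dorsal raphe replicate 4 and 372 CPM in high responder amygdala replicate 1. It thus stood out in the same libraries as its 5p arm. miR-99a-3p lay between 14.9 and 45.4 CPM, and its groups overlapped in every comparison of the lines. miR-100-3p was the lowest, at 11 to 68 counts a library. In dorsal raphe the low responder libraries held 10.6, 8.59, 11.7 and 8.81 CPM and the high responder libraries 10.4, 8.86, 10.4 and 8.21 CPM. In amygdala it was at 6.65, 5.33, 4.12 and 5.41 CPM in low responders and at 6.92, 4.07, 7.60 and 4.94 CPM in high responders. The 8 amygdala libraries all lay below the 8 dorsal raphe libraries, and low responder dorsal raphe replicate 4 was not high for this arm.

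**Figure D1:**
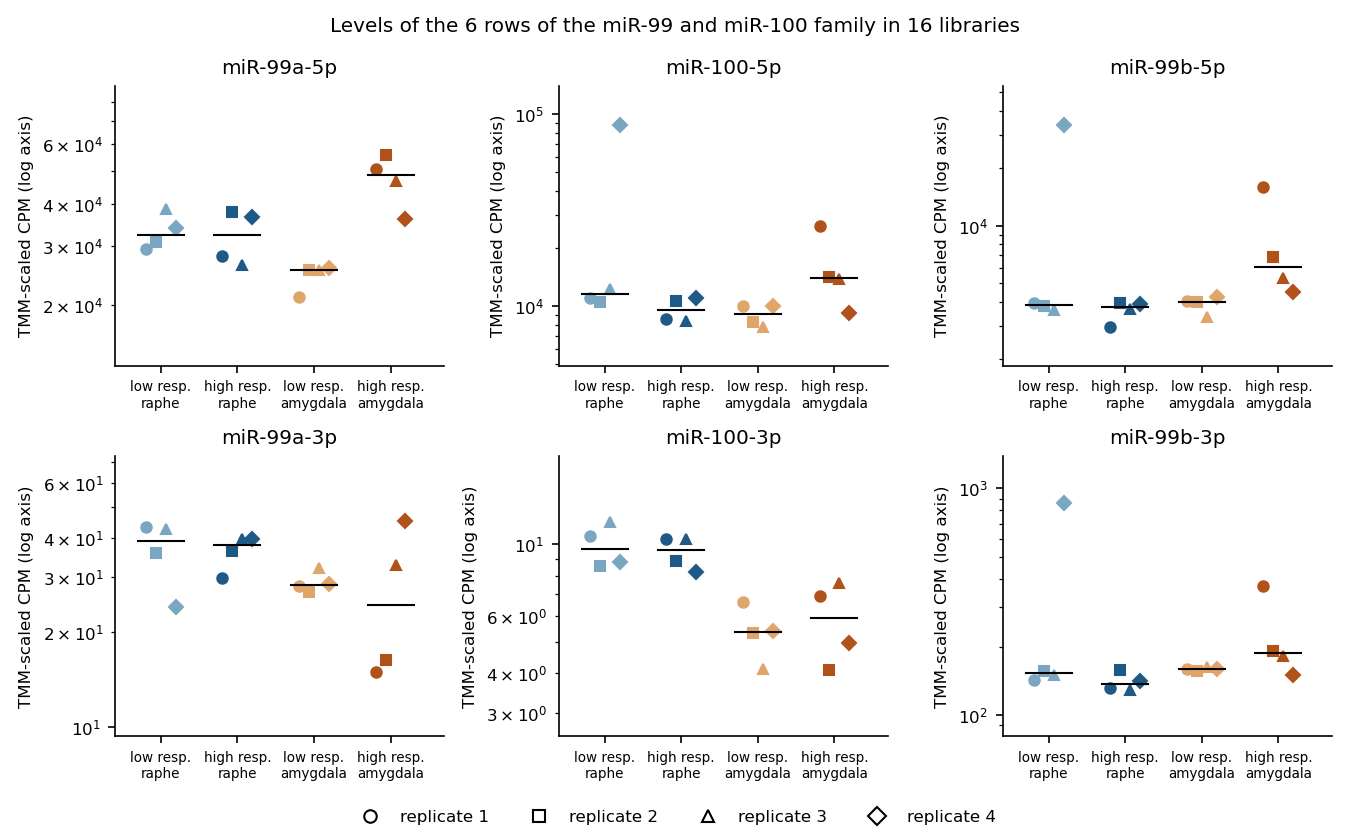
Level of each of the 6 family members in every library, in CPM on a log axis, by group, with 1 point per library and a bar at the group median. Low responder dorsal raphe replicate 4 stands far above its group for miR-100-5p (87757 CPM), miR-99b-5p (33617 CPM) and miR-99b-3p (864 CPM) and lies within it for miR-99a-5p (33859 CPM).

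The difference between the regions was tested with edgeR's quasi-likelihood test, with Benjamini-Hochberg adjustment over the 639 miRNAs that passed the filter on low counts, as all 6 members did. Averaged over the lines, 155 of the 639 miRNAs (24.3%) passed an adjusted p of 0.05, 14.9% lower and 9.39% higher in amygdala. Of the family, 1 member fell and none rose, and the median log2 fold change of the 6 was -0.27 against -0.08 over all miRNAs tested. That median holds miR-99a-5p and miR-100-5p, so it is a description only. The member that fell was the passenger miR-100-3p, with a log2 fold change of -0.79 ± 0.20 (SE) and an adjusted p of 0.00762. Without low responder dorsal raphe replicate 4 it was -0.78 (adjusted p = 0.00812), and without both deviating libraries -0.66 (adjusted p = 0.0165). Its complete separation of regions was shared by 4.69% of all miRNAs tested, counting those lower in amygdala. The major arms did not pass the test: the log2 fold change was 0.06 ± 0.15 for miR-99a-5p (adjusted p = 0.781), -0.52 ± 0.39 for miR-100-5p (adjusted p = 0.331) and -0.18 ± 0.42 for miR-99b-5p (adjusted p = 0.766). With the counts of miR-99a-5p and miR-100-5p added into 1 sum, the result does not depend on how reads are split between them. The log2 fold change of the sum was -0.15 ± 0.22 averaged, -0.90 ± 0.32 in low responders and 0.61 ± 0.32 in high responders. These values are a description only, because both rows helped choose the family. The low responder value also holds the high miR-100-5p count of dorsal raphe replicate 4.

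For miR-99b-5p the averaged region difference changed sign without low responder dorsal raphe replicate 4. It then stood at 0.64 ± 0.23 (adjusted p = 0.0452), higher in amygdala, in a fit that called 32.0% of 663 miRNAs. Without both deviating libraries it stood at 0.52 ± 0.12 (adjusted p = 0.00359), and miR-99b-3p rose with it (0.39 ± 0.11, adjusted p = 0.0145), where 19.8% of 648 miRNAs were called higher. The calls of both miR-99b arms appeared only with libraries of their highest levels left out, so they are a description only. miR-100-5p also changed sign, to 0.23 ± 0.19 without the 1 library (adjusted p = 0.359) and 0.21 ± 0.13 without both (adjusted p = 0.194), and passed in neither fit.

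In low responders 90 miRNAs (14.1%) were called between the regions, 10.5% of those tested lower in amygdala and 3.60% higher. All 6 members had negative log2 fold changes, with a median of -0.96 against -0.12 over all miRNAs tested. That median is a description only, because it holds miR-99a-5p and miR-100-5p and the high counts of dorsal raphe replicate 4. miR-100-5p fell by 1.75 ± 0.56 on the log2 scale (adjusted p = 0.0451) and miR-100-3p by 0.89 ± 0.28 (adjusted p = 0.0392). The libraries of the regions did not overlap for these 2 or for miR-99a-5p (-0.44 ± 0.22, adjusted p = 0.199), as for 13.1% of all miRNAs on the lower side. The size of the miR-100-5p difference came from 1 library: without replicate 4 of dorsal raphe it was -0.20 ± 0.28 (adjusted p = 0.629), in a fit that called 12.7% of miRNAs and no family member. That library is also among those that led to the choice of the family, so the call on miR-100-5p supports nothing. miR-100-3p without it stood at -0.83, with an adjusted p of 0.0698. The values of miR-99b-5p (-1.53 ± 0.61, adjusted p = 0.106) and miR-99b-3p (-1.03 ± 0.49, adjusted p = 0.181) turned to 0.15 and 0.21 without that library.

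In high responders 84 miRNAs (13.1%) were called, 6.57% in each direction, and no family member was among them. The median of the 6 log2 fold changes was 0.62 against 0.08 over all miRNAs. It is a description only, because it holds miR-99a-5p and miR-100-5p, which helped choose the family. miR-99b-5p stood at 1.17 ± 0.61 (adjusted p = 0.211), with every amygdala library above every dorsal raphe library, as for 11.1% of miRNAs. miR-100-3p stood at -0.68 ± 0.28 (adjusted p = 0.125), with every amygdala library below, as for 12.4%. miR-100-5p was at 0.71 ± 0.55 (adjusted p = 0.385). The high responder amygdala levels of miR-99a-5p were among the values that chose the family, so its region difference in high responders is a description only: 0.56 ± 0.22 with all libraries and 0.67 ± 0.17 without both deviating libraries. In the fit without both, 13.3% of miRNAs were called higher. There miR-99b-5p passed the test at 0.77 ± 0.17 (adjusted p = 0.00327), while miR-100-5p was at 0.50 with an adjusted p of 0.0524. Without low responder dorsal raphe replicate 4 alone, which shares in the estimate of spread, miR-99b-5p also passed in high responders (1.13 ± 0.32, adjusted p = 0.0194), where 8.90% were called higher. The libraries left out were those with the highest miR-99b-5p levels, 33617 and 15963 CPM. These calls of miR-99b-5p are therefore a description only and no independent support. In low responders 19.9% of miRNAs were called without both deviating libraries and no family member was, with miR-99b-5p at 0.27 (adjusted p = 0.257). Whether the region difference of the family differed between the lines was not tested, since that contrast was among those behind the choice of the family.

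**Figure D2:**
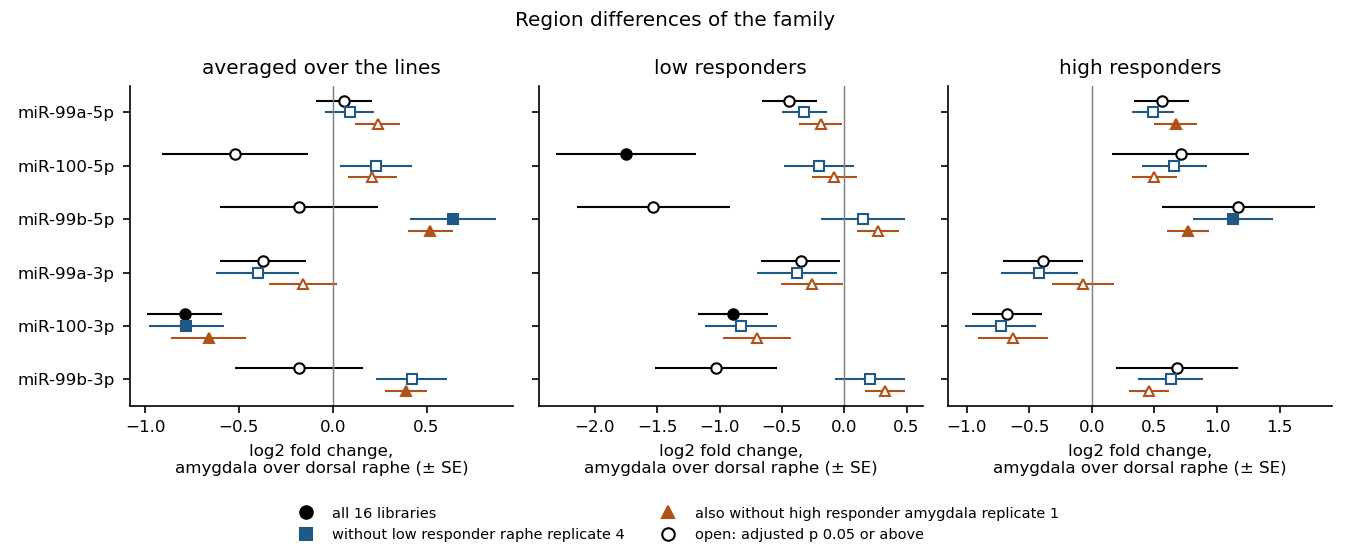
Log2 fold change of each member, amygdala over dorsal raphe, with its standard error, averaged over the lines and within each line, for all 16 libraries (circles), without low responder dorsal raphe replicate 4 (squares) and without both deviating libraries (triangles), with filled marks where the adjusted p is under 0.05. The marks of miR-100-5p in low responders and miR-99a-5p in high responders rest on libraries that chose the family. Filled marks of the miR-99b arms appear only with libraries of their highest levels left out. miR-100-3p is below 0 throughout, while miR-100-5p in low responders moves from -1.75 to -0.08 without both.

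Between the lines, high over low responders, no miRNA passed the adjusted threshold with edgeR in either region (0%). In dorsal raphe 4 miRNAs were higher and 66 lower at an unadjusted p under 0.05, and DESeq2 called 0. In amygdala the unadjusted counts were 37 and 28, and DESeq2 called 19. Against that background, the values of the family in dorsal raphe were -1.66 ± 0.56 for miR-100-5p, -1.63 ± 0.61 for miR-99b-5p and -1.22 ± 0.49 for miR-99b-3p (log2, SE), and between -0.08 and -0.02 for the other 3 members. No member's groups were apart in that region, as those of 4.23% of all miRNAs were. Without low responder dorsal raphe replicate 4 the same 3 stood at -0.09 ± 0.28, 0.06 ± 0.34 and 0.04 ± 0.28. The line difference of the family in dorsal raphe was thus that of 1 library.

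In amygdala the line difference was spread over more libraries. The amygdala groups of the lines also differed in sums of tissue markers, given below. Only the forebrain neuron sum, mostly miR-128-3p, was without overlap. miR-99a-5p was 0.95 ± 0.22 higher in high responders on the log2 scale, and miR-99b-5p 1.07 ± 0.60, both with no overlap between the lines, as for 5.01% of all miRNAs on the higher side. miR-100-5p stood at 0.81 ± 0.55 and miR-99b-3p at 0.48 ± 0.49. Without high responder amygdala replicate 1, miR-99a-5p kept most of its difference (0.91 ± 0.23), while miR-99b-5p fell to 0.51 ± 0.57, miR-100-5p to 0.45 ± 0.54 and miR-99b-3p to 0.12 ± 0.46. The passengers miR-99a-3p (-0.06) and miR-100-3p (0.13) stood near 0. miR-99a-5p thus had a line difference in amygdala that the mean of its own 3p arm did not show. That arm was split in high responder amygdala. Replicates 1 and 2 (14.9 and 16.3 CPM, from 28 and 44 counts) lay below every low responder library (26.8 to 32.1 CPM). Replicates 3 and 4 (32.7 and 45.4 CPM) lay above them. The difference between the line differences, amygdala minus dorsal raphe, was 1.00 ± 0.31 for miR-99a-5p, 2.46 ± 0.79 for miR-100-5p and 2.70 ± 0.86 for miR-99b-5p, and 0.86 ± 0.24, 0.58 ± 0.25 and 0.50 ± 0.24 without both deviating libraries.

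Ratios within a library need no scaling between libraries. The log2 ratio of miR-99a-5p to miR-100-5p lay between 0.96 and 1.98 in 15 libraries. In low responder dorsal raphe it was 1.42, 1.56, 1.65 and -1.37, so that in replicate 4 alone miR-100-5p outnumbered miR-99a-5p, at 56.5% of the 3 summed 5p arms against 21.8%. The next lowest ratio was that of high responder amygdala replicate 1. Between the regions the ratio differed by 0.63 in low responders (amygdala minus dorsal raphe, exact two-sided permutation p = 0.686, Benjamini-Hochberg adjusted p = 0.971) and by -0.06 in high responders (exact permutation p = 0.971), where 4 against 4 libraries cannot go below 0.0286. The sign of both differences rested on 1 library each: without low responder dorsal raphe replicate 4 the low responder value was -0.10 (group means 1.44 and 1.54), and the high responder value was 0.17 (1.90 and 1.73) with amygdala replicate 1 left out. Against miR-99b-5p the log2 ratio of miR-99a-5p was 0.01 in low responder dorsal raphe replicate 4 and 1.66 in high responder amygdala replicate 1. The ratio of miR-100-5p to miR-99b-5p in low responder dorsal raphe replicate 4 was 1.38, beside 1.46 to 1.75 in the rest of its group. The deviation of that library was thus shared by miR-100-5p and miR-99b-5p and not by miR-99a-5p. Summed, the 5p arms made up 3.57% to 9.99% of a library, with 9.25% in low responder dorsal raphe replicate 4 and 9.99% in high responder amygdala replicate 1.

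The share of the passenger among both arms also differed between members. It was 2.28% to 4.67% for miR-99b, 0.0292% to 0.150% for miR-99a and 0.0100% to 0.124% for miR-100. For miR-100 it was 0.122%, 0.0830%, 0.124% and 0.0746% in high responder dorsal raphe and 0.0266%, 0.0287%, 0.0551% and 0.0536% in high responder amygdala, without overlap. For miR-99b the high responder means were 3.75% in dorsal raphe and 2.88% in amygdala, also without overlap. Both differences had the smallest p this design allows (exact two-sided permutation p = 0.0286) and an adjusted p of 0.0857 over the 6 tests, which misses 0.05. With no more of the 6 tests at that smallest p, neither could pass after adjustment, so the miss does not show equal shares. The miR-100 share contains miR-100-5p, whose levels were among the values that chose the family, so its p is no independent support. In low responders the 3 shares differed by 0.00735 percentage points for miR-99a, -0.0116 for miR-100 and 0.497 for miR-99b (exact permutation p between 0.400 and 0.743). Without replicate 4 of dorsal raphe these were -0.00599, -0.0319 and 0.172 percentage points. Without replicate 1 of amygdala the high responder differences were -0.0552 percentage points for miR-100 and -0.668 for miR-99b. The lowest share of miR-100-3p, 0.0100% (Wilson interval 0.00561% to 0.0180%), belonged to low responder dorsal raphe replicate 4, where the 5p arm was high and the 3p arm was not.

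**Figure D3:**
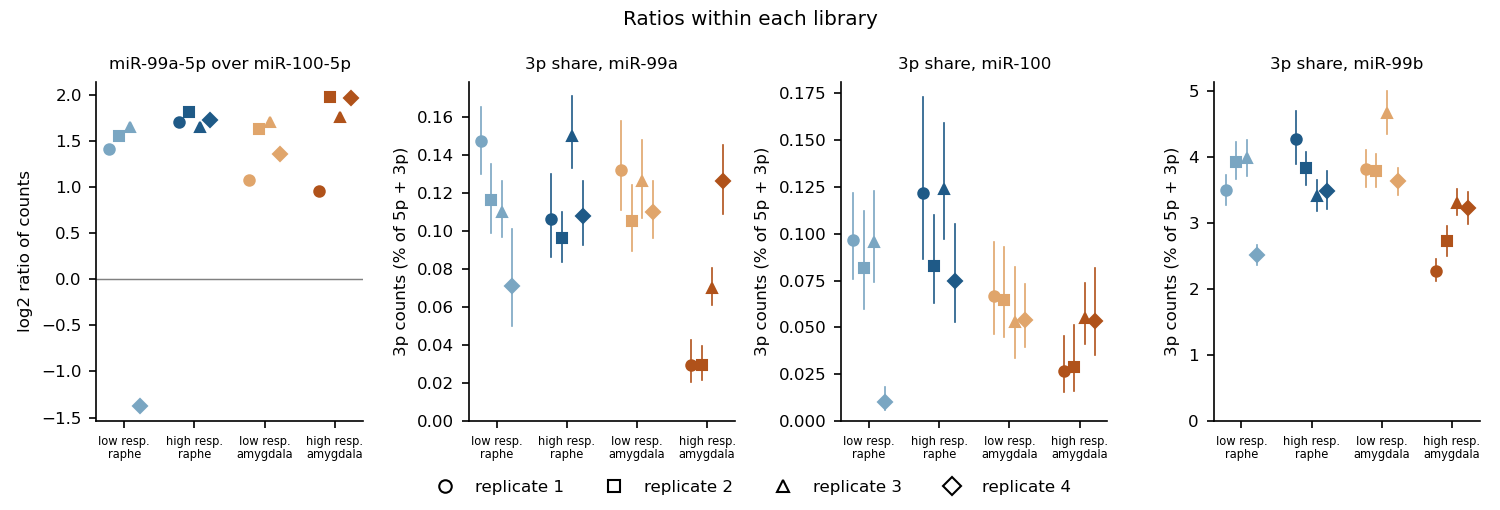
Within-library measures by group, with 1 point per library: the log2 ratio of miR-99a-5p to miR-100-5p, and the percentage of the 3p arm among both arms for miR-99a, miR-100 and miR-99b, with 95% Wilson intervals that cover counting error only. The ratio is at -1.37 in low responder dorsal raphe replicate 4 and between 0.96 and 1.98 in the other 15 libraries.

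The neighbours of the family in its clusters gave a view of the same transcripts. In the RefSeq annotation of GRCr8 the genes stand in the orders Mir99a, Mirlet7c1 and Mir125b2, then Mir100, Mirlet7a-2 and Mir125b1, and then Mir99b, Mirlet7e and Mir125a, each trio on 1 chromosome and 1 strand. Some of these mature names, such as let-7a-5p and miR-125b-5p, are made from several genes. Of the 11 neighbouring miRNAs tested, 1 was called lower in amygdala averaged over the lines, miR-125b-5p (-0.67 ± 0.24, adjusted p = 0.0481), and 1 in low responders, miR-125b-1-3p (-1.23 ± 0.31, adjusted p = 0.0141). None was called higher in either, and none was called in high responders, against the 24.3%, 14.1% and 13.1% of all miRNAs given above. The medians of the 11 log2 fold changes were -0.38 averaged, -0.47 in low responders and -0.19 in high responders. let-7c-2-3p, from a let-7c gene outside these trios, stood at 0.18 ± 0.38 averaged (adjusted p = 0.738) and is not counted among them.

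In low responder dorsal raphe replicate 4 the cluster members went apart. Over the mean of the other 3 libraries of the group, miR-99b-5p was 8.85-fold, miR-100-5p 7.81-fold and miR-99b-3p 5.76-fold, while miR-99a-5p was 1.03-fold, let-7e-5p 1.15-fold and let-7a-5p 1.10-fold. These folds are of scaled CPM, and the scaling factor of this library was the lowest, 0.596 against 0.871 to 1.27. By share of the library, miR-99a-5p (2.02% against 3.18% to 3.85%) lay below the group. So did let-7e-5p (0.154% against 0.202% to 0.292%) and let-7a-5p (0.720% against 1.03% to 1.28%). miR-100-5p (5.23% against 1.12% to 1.22%) and miR-99b-5p (2.00% against 0.363% to 0.427%) lay above it. The 5p arms of miR-125a and miR-125b were lower, at 0.534-fold and 0.663-fold, whereas their passengers miR-125a-3p, miR-125b-1-3p and miR-125b-2-3p were at 1.99-fold, 1.99-fold and 3.10-fold. The 5p arms of the let-7 and miR-125 neighbours thus lay between 0.534-fold and 1.15-fold, far below miR-100-5p and miR-99b-5p. Over all 639 miRNAs the median log2 ratio of this library to the others was 0.08, with quartiles of -0.82 and 1.09, (0.5 CPM added to each level), and 6 miRNAs, counting miR-99b-5p itself, were at least as high as miR-99b-5p. In high responder amygdala replicate 1 miR-99b-5p was 2.86-fold, miR-99b-3p 2.13-fold and miR-100-5p 2.10-fold the mean of the other 3 libraries of its group, let-7e-5p 0.420-fold and miR-125a-5p 0.248-fold. Such folds were common in that library, where 55 of the 639 miRNAs were at least as high as miR-99b-5p and 113 at least as high as miR-100-5p.

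**Figure D4:**
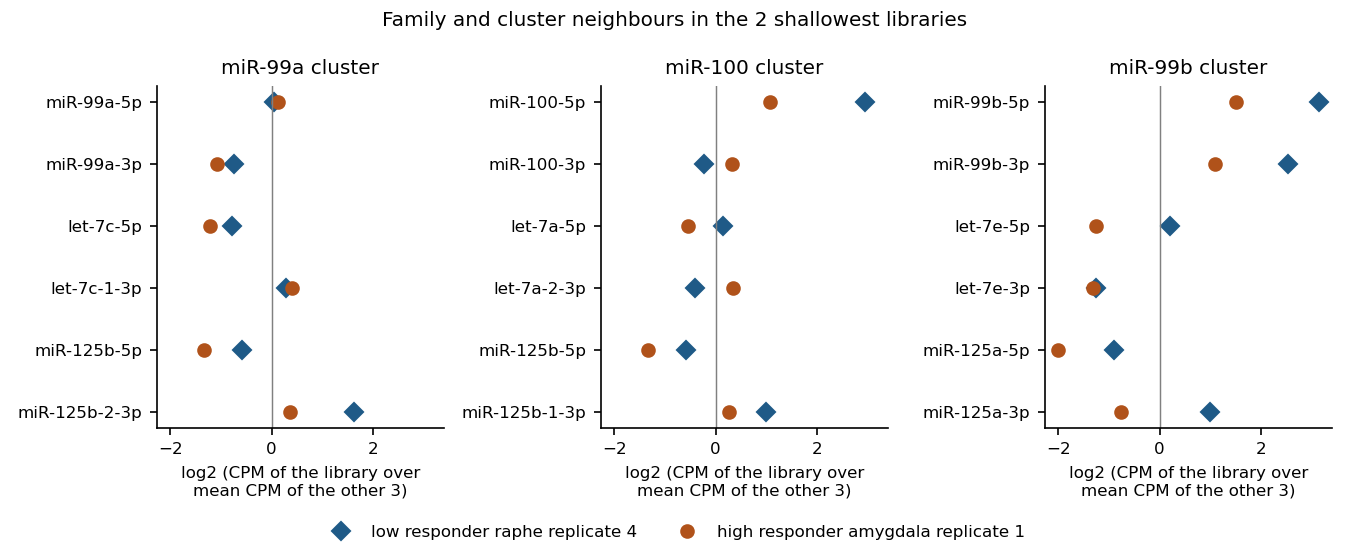
Log2 ratio of replicate 4 of low responder dorsal raphe and of replicate 1 of high responder amygdala to the mean of the other 3 libraries of the group, for each family member and cluster neighbour. In the first library miR-99b-5p is 8.85-fold and miR-100-5p 7.81-fold the others, while let-7e-5p is 1.15-fold and miR-125a-5p 0.534-fold.

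Several marker lists summed higher in low responder dorsal raphe replicate 4, all but the choroid plexus list through only part of their members. The 6 miRNAs of the Hox clusters summed to 3930 CPM there against 415 to 422 CPM in the rest of the group, with 4 of 6 highest in it and miR-196b-5p and miR-615 without a count, which at this depth allows up to 1.43 CPM before scaling. By group the sum ran from 415 to 3930 CPM in low responder and 369 to 470 CPM in high responder dorsal raphe, and from 27.3 to 127 CPM and 54.6 to 161 CPM in amygdala. The oligodendrocyte list summed to 40515 against 13932 to 16360 CPM through miR-219-2-3p alone (35333 against 7751 to 9762 CPM), and its other 3 listed miRNAs were the lowest of the group. The vessel list summed to 119378 against 47068 to 59656 CPM through miR-143-3p alone (105324 against 20226 to 24126 CPM), and the other 5, among them the endothelial miR-126a-3p (12518 against 24025 to 32536 CPM), were the lowest of the group. On the muscle list (5249 against 2108 to 2674 CPM) 4 of 7 were highest, led by miR-1-3p, while miR-133a-3p, miR-133b-3p and miR-499-5p were lowest. The choroid plexus list (3827 against 2065 to 2566 CPM) had 4 of 4 highest. The forebrain neuron list (40088 against 26807 to 30597 CPM) had 3 of 6 highest, led by miR-128-3p, while miR-124-3p (5137 against 12299 to 13834 CPM), miR-221-3p and miR-212-3p were lowest. Erythrocyte (85.7 against 141 to 166 CPM) and microglia lists (307 against 389 to 564 CPM) were lower.

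In high responder amygdala replicate 1 the Hox list summed to 161 against 54.6 to 103 CPM (5 of 6 highest) and the forebrain neuron list to 121199 against 103573 to 107260 CPM (1 of 6 highest). The sums were lower there for the choroid plexus (8269 against 14167 to 17106 CPM), erythrocyte (68.1 against 111 to 348 CPM), microglia (180 against 248 to 415 CPM) and muscle lists (465 against 476 to 781 CPM). The oligodendrocyte and vessel sums lay within the range of the other 3 libraries. In amygdala the forebrain neuron sum was 63343 to 93140 CPM in low and 103573 to 121199 CPM in high responders, without overlap. It was again mostly miR-128-3p (45979 to 68526 CPM against 88059 to 115022 CPM), and the other members of that list overlapped. Of these, miR-221-3p (1756 to 4382 against 457 to 3102 CPM), miR-124-3p (7378 to 14892 against 2616 to 10754 CPM) and miR-212-3p (287 to 403 against 87.8 to 305 CPM) leaned lower in high responders. For miR-132-3p and miR-222-3p the high responder range enclosed the low responder range. The choroid plexus sum was 999 to 9229 CPM against 8269 to 17106 CPM, and the sums of the remaining lists overlapped too. The part of these tissues, and of depth, in the levels of the family and its line differences was not tested.

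The miRNAs whose log2 CPM varied most like those of the main members were sought among 406 miRNAs with a mean of at least 10 CPM, as a description over libraries that share their groups. Over 16 libraries miR-99a-5p was most like miR-148b-5p (Pearson r = 0.824, Spearman rho = 0.676), then miR-347 (r = 0.758), miR-24-2-5p (0.752), miR-370-3p (0.728) and miR-320-5p (0.648). Without low responder dorsal raphe replicate 4 the first 4 names were the same in another order, and miR-100-5p was next (r = 0.766, rho = 0.861). Over 16 libraries miR-100-5p was most like miR-99b-3p (r = 0.970, rho = 0.506), miR-99b-5p (r = 0.962, rho = 0.609), miR-485-5p (0.958), miR-143-3p (0.956) and miR-27b-5p (0.942). Without low responder dorsal raphe replicate 4 the list was miR-188-5p (r = 0.919), miR-99b-5p (r = 0.909, rho = 0.525), miR-99b-3p (r = 0.876, rho = 0.400), miR-370-3p (0.859) and miR-485-5p (0.845). miR-99a-5p and miR-100-5p themselves had r = 0.393 and rho = 0.788 over 16 libraries, and r = 0.795 and rho = 0.833 over the 14 without both deviating libraries, where miR-99a-5p ranked first of 406 for miR-100-5p. Over those 14 libraries the likeness of miR-100-5p to miR-99b-5p fell to r = 0.716 (rho = 0.415) and to miR-99b-3p to r = 0.587 (rho = 0.262, rank 11).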

How the data were processed

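Small RNA from 16 rat brain libraries, 4 in each of 4 groups, was extracted with the Qiagen miRNeasy kit and size selected, per the labels' protocols. The authors deposited whole-number counts per mature miRNA. Per the submitters' processing notes, cutadapt 1.3.1, Bowtie2 and bedtools 2.14.2 were used. The genome build and annotation were not given in the sources used here, nor was the handling of reads mapping to several miRNAs.

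Counts were analysed as deposited with edgeR 4.0.16 in R 4.3.3: TMM scaling, filterByExpr (minimum count 10, minimum total 15), which kept 639 of 722 miRNAs, and a robust quasi-likelihood fit of 4 group means over all libraries, with Benjamini-Hochberg adjustment over the 639 and a threshold of 0.05. Levels are TMM-scaled CPM, and the log2 CPM used for likeness had a prior count of 2. The SE of a log2 fold change is its size divided by the square root of F. The biological coefficient of variation was 0.426. A floor of 3 counts corresponds to 0.369 to 1.72 CPM before TMM scaling, a limit for counting error only. Intervals of shares are Wilson intervals at 95%, also for counting error only. Exact permutation tests used scipy 1.17.1. In counts simulated for 611 miRNAs, the averaged region test found 57.6% of 2-fold and 93.5% of 4-fold changes, the test within low responders 28.8% and 85.5%, and that within high responders 21.2% and 82.3%. Of 1.5-fold changes it found 20.6% averaged and 3.17% within each line, so smaller differences of the family could be missed. The simulation gave both lines the same mean levels and held no deviating library. Alternatives were DESeq2 1.42.0, other scalings, no filter, a replicate block, miR-99a-5p and miR-100-5p summed, each library left out, and both deviating libraries left out.

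Replicates carry the numbers 1 to 4 in the labels. Deviations from the group means of same-numbered libraries correlated at 0.69, 0.29, 0.21 and 0.51 between the lines in amygdala. The labels do not say what the number marks. The main fit did not use it, so the SE of the line differences in amygdala takes no account of such pairs. A replicate block was fitted only as an alternative. Between other groups at least 1 correlation was not above 0.1. Named were all family members, listed members of their genomic clusters, and the 5 miRNAs most like miR-99a-5p and miR-100-5p. The family, the lists and the tests were chosen with earlier results of these data known.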

Additional observations from a re-analysis of the deposited data

Results flagged for a closer look

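In each group of 4 libraries, the gap of the highest or lowest library to its nearest neighbour was divided by the range of the group and compared with Dixon's critical value of 0.829. Of 40 such groups of values, 6 passed. Chance passes about 1 in 20 groups, but the count is a description and no test here, because the family was chosen with the deviating library known, and the ratio and the passenger share given below restate the level of miR-100-5p. In 5 of the 6 the library was low responder dorsal raphe replicate 4: miR-100-5p at 87757 CPM, miR-99b-5p at 33617 CPM, miR-99b-3p at 864 CPM, the log2 ratio of miR-99a-5p to miR-100-5p at -1.37, and the share of miR-100-3p among both arms at 0.0100%. The sixth was miR-99a-5p in low responder amygdala replicate 1, at 21166 CPM against 25474 to 25738 CPM in the other 3 libraries. It was the lowest of the 16 libraries for this miRNA.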

How the results depend on the processing

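The fall of miR-100-3p in amygdala averaged over the lines passed the test under all 7 other settings and with each of the 16 libraries left out, with adjusted p between 0.00806 and 0.0471. In low responders its call was lost with 15 of 16 libraries left out and under 4 of 7 settings, and that of miR-100-5p with 13 of 16 and under 4 of 6. The call of miR-125b-5p averaged was lost with 12 of 16 and under 4 of 7, and that of miR-125b-1-3p in low responders with 4 of 16 (-0.80, adjusted p = 0.0570, without dorsal raphe replicate 4) and under 1 of 7. In high responders miR-99a-5p, whose amygdala levels there were among the values that chose the family, stood at 0.61 with DESeq2 and at 0.74 without amygdala replicate 4, as a description. There miR-99b-5p passed without low responder dorsal raphe replicate 4, the library of its highest level (1.13, adjusted p = 0.0194), likewise a description. The cause of these changes was not tested.

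Without both deviating libraries the sign turned for miR-100-5p (0.21), miR-99b-3p (0.39) and miR-99b-5p (0.52) averaged, and for miR-99b-3p (0.33) and miR-99b-5p (0.27) in low responders. Averaged miR-99b-5p also turned with library totals (0.05), and the ratio of miR-99a-5p to miR-100-5p in high responders with medians (0.14). Leaving out 1 library at a time gave averaged ranges of -0.63 to 0.23 for miR-100-5p, -0.27 to 0.42 for miR-99b-3p and -0.29 to 0.64 for miR-99b-5p, ranges in low responders of -1.17 to 0.21 for miR-99b-3p and -1.72 to 0.15 for miR-99b-5p, ratio ranges of -0.10 to 0.91 in low and -0.17 to 0.17 in high responders, and -0.00599 to 0.0193 percentage points for the miR-99a passenger share in low responders. Every positive end for miR-100-5p and both miR-99b arms came without low responder dorsal raphe replicate 4.

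The number of calls between regions ranged from 114 to 218 averaged, 47 to 94 in low responders (47 without amygdala replicate 3) and 61 to 128 in high responders (128 without amygdala replicate 4) with 1 library left out. High responder calls numbered 136 with DESeq2 and 138 without both deviating libraries. Line calls in amygdala numbered 2 with library totals, 19 with DESeq2, 9 without both deviating libraries and 0 to 2 with 1 library left out, and in dorsal raphe 0 to 0. The split of higher to lower calls moved from 60 and 95 to 100 and 103 averaged with DESeq2, from 23 and 67 to 34 and 54 with library totals and 40 and 69 with DESeq2 in low responders, and from 42 and 42 to 40 and 71 with library totals in high responders. Library totals moved the median of all miRNAs by 0.14 in low responders, -0.18 in high responders and 0.23 between lines in dorsal raphe.

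With the replicate block, 188 miRNAs were called averaged, 105 in low and 91 in high responders and 0 between the lines in either region. The block turned averaged miR-99b-5p to 0.04, and miR-100-5p in low responders stood at -1.36 with an adjusted p of 0.127. Sign permutation of 4 pairs, and permutation of 3 against 4 libraries with adjustment, cannot pass 0.05 and say nothing on stability.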
